A study of Mus musculus with 25 samples.

Results

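Transcripts of genes for fatty acid uptake and oxidation were followed in mouse sinoatrial node (SAN), where the heartbeat is set, and in the neighbouring working muscle of the right atrium (RA). The set was defined by gene name as 36 enzymes, carriers and transporters. Of these, 35 had a row among the 20870 genes of the processed table and make up the set described here. Cpt1b, the muscle form of carnitine palmitoyltransferase 1, was not analysed here.

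Tissue was collected from mouse hearts by laser capture, in which regions are outlined on frozen sections and cut out with a laser. Total RNA was amplified before sequencing. There were 18 libraries from Hcn4-GFP mice of mixed background, 3 each from SAN and RA at 3 stages, namely 14.5 days of embryonic life (E14.5) and 4 and 14 days after birth (P4 and P14). A further 7 libraries came from SAN at embryonic day 12.5 (E12.5), all with Hcn4-GFP and floxed Isl1 alleles (Isl1 fl/fl) and all exposed to tamoxifen at embryonic day 10.5. Of these, 4 carried no Cre (CreNeg), and 3 carried CAG-Cre/Esr1 (CrePos), a Cre recombinase driven by a broadly active promoter and switched on by tamoxifen, so that loss of Isl1 need not be limited to the node. CrePos replicate 2 is marked as an outlier in its title and was left out of the comparison. Which animal each library came from is not given in the labels, so the p-values reflect variation between libraries, part of which may be technical.

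Fatty acids reach heart muscle as albumin-bound acids or are freed from lipoproteins by lipoprotein lipase at the capillary wall. They cross the cell membrane, are joined to coenzyme A, pass into mitochondria as carnitine esters and are shortened there by repeated cycles of beta oxidation, which feed electrons to the respiratory chain. The fetal heart relies largely on glucose and lactate, and the heart after birth relies largely on fatty acids. Nuclear receptors of the PPAR and ERR families are known to raise many genes of the pathway.

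Levels are given as CPM, here the deposited value over a single constant shared by all libraries. The 18 libraries held between 5101711 and 17997497 recovered reads and the other 7 between 45298052 and 88020474. A count of 3 reads was worth at most 0.646 CPM in any library, a floor that reflects counting alone because amplified copies are not separate molecules. Hcn4, the pacemaker channel, stood at 1141 to 3748 CPM in the 9 SAN libraries and at 4.43 to 31.1 CPM in the 9 RA libraries, and Nppa, an atrial hormone, at 320.3 to 1453 CPM in RA and at most 34.4 CPM in SAN. SAN E14.5 replicate 1 held 828.7 CPM of Myl2, a ventricular myosin light chain, against at most 24.5 CPM in the other 17. RA P4 replicate 3 was the shallowest, at 5101711 reads and 15657 genes detected. Levels were not compared between the 18 and the 7 libraries, since in the 7 between 21.4 and 34.1% of reads fell on the mitochondrial ribosomal RNA gene mt-Rnr2, which was listed at 0 in the 18.

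All 35 genes passed the filter of 1 CPM in at least 3 of the 18 libraries. Between E14.5 and P14 the set moved mostly upward in both tissues. A gene was called when its limma p, adjusted by Benjamini-Hochberg across the 17568 genes tested, was under 0.05. In SAN 13 of 35 genes rose and 2 fell, which is 42.9% of the set, while 24.3% of all genes tested were called, 9.74% as higher and 14.5% as lower. In RA 15 rose and 1 fell, or 45.7%, against 22.7% of all genes, 5.99% higher and 16.7% lower. The median log2 difference of the 35 genes was 0.49 in SAN and 0.70 in RA, and that of all genes tested was −0.18 and −0.37. With libraries scaled to equal upper quartiles those medians were 0.64 and 1.03 for the set and −0.05 and −0.10 for all genes. Scaled to the sarcomere genes the calls in RA were 10 higher and 3 lower, since Acaa2, Acat1, Cpt2, Etfdh and Hadhb were no longer called and Hadh and Acsl5 were called lower. With upper-quartile scaling and with edgeR they were 22 higher and 1 lower, and Hadha, Etfa, Etfb, Slc25a20, Cpt1a, Acadvl and Acot2 were among those added by both. Shares of all genes called, here and below, are those of limma as fitted here. Those under other scalings, edgeR and DESeq2 are not given, so counts under them are not set against all genes. Of the rises in limma as fitted here, 10 were shared by both tissues, which is 76.9% of those in SAN and 66.7% of those in RA. Sharing was not counted over all genes, so these percentages cannot be read as particular to the set.

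Fewer cells of a type and less RNA per cell cannot be told apart in tissue of this kind. Summed markers of other cells also moved with stage. In SAN the 11 macrophage markers with a row summed to 51.6 to 100.2 CPM at E14.5 and 543 to 707 CPM at P14, the 10 fibroblast markers to 3915 to 6696 CPM and 19621 to 22722 CPM, and the 7 smooth muscle and pericyte markers to 678 to 815 CPM and 3053 to 3762 CPM. In RA the fibroblast sum was 5836 to 7067 CPM at E14.5 and 9828 to 12010 CPM at P14, the macrophage sum 82.3 to 132 CPM and 238 to 276 CPM, and the smooth muscle and pericyte sum 370.3 to 619 CPM and 780.5 to 1176 CPM. The 8 erythroid markers summed to 1798 to 6061 CPM in SAN at E14.5 and 222 to 1476 CPM at P14, and to 2579 to 23854 CPM and 218 to 503 CPM in RA. Their part in the changes of the set was not tested. Summed levels of the 20 sarcomere genes overlapped between the stages in SAN, at 96086 to 98335 CPM at E14.5 and 88494 to 104978 CPM at P14, and did not overlap in RA, at 74543 to 101650 CPM and 128020 to 135854 CPM.

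**Figure D1:**
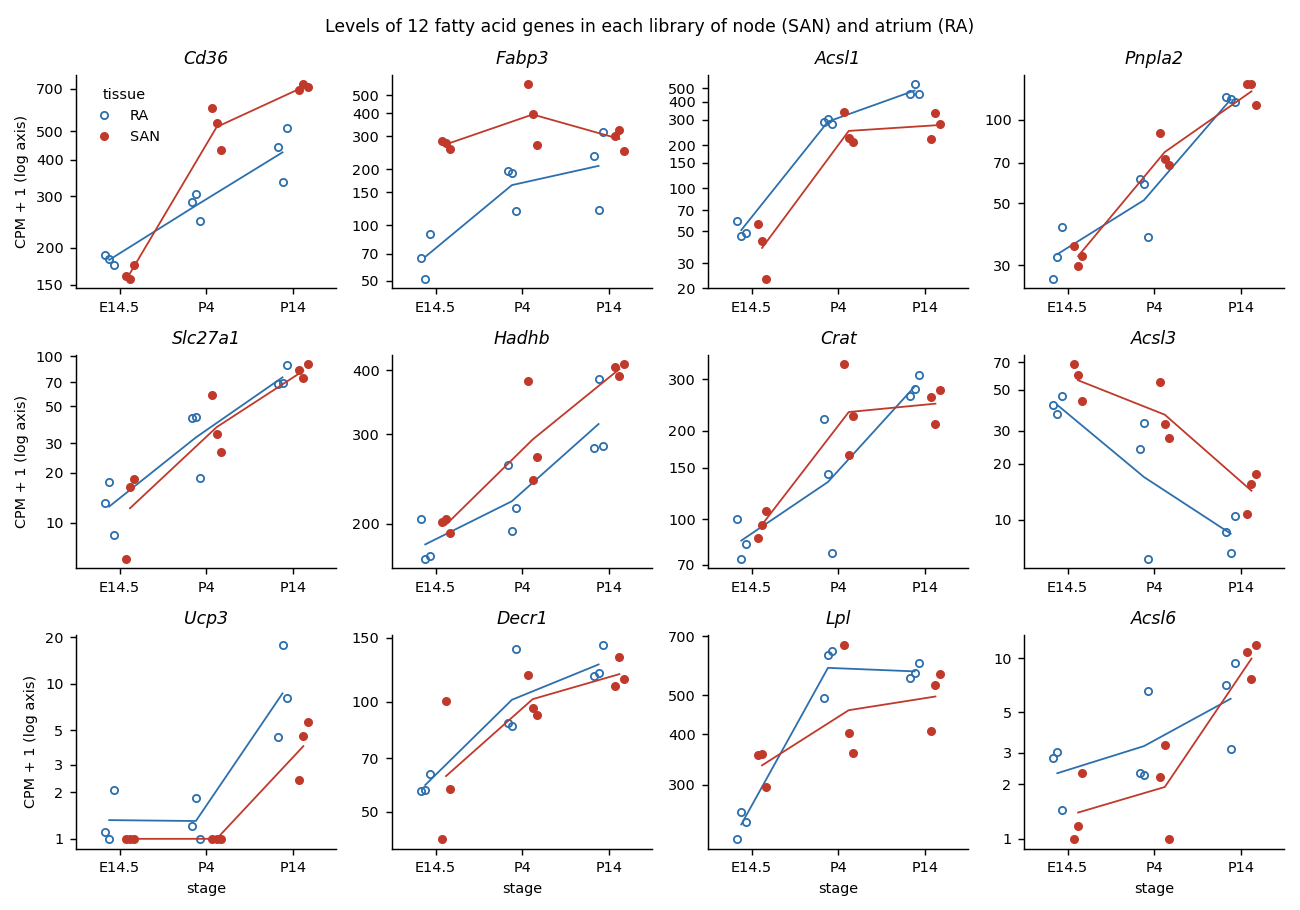
Each panel shows 1 gene, with CPM + 1 on a log axis against stage; open blue circles are RA libraries, filled red circles SAN libraries, and lines join the means of the log values of 3 libraries. Cd36 separates the tissues at P4 and P14, Fabp3 at E14.5 and P4, and Acsl3 is the gene that declines in both.

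Of the 5 uptake genes, 3 rose in SAN and 4 in RA, against 9.74% and 5.99% of all genes called higher. Cd36, the membrane fatty acid translocase, was at 188, 182 and 174 CPM in the RA libraries at E14.5, 287, 304 and 247 CPM at P4 and 442, 335 and 512 CPM at P14. In SAN its level was 159, 156 and 174 CPM at E14.5, 599, 532 and 432 CPM at P4 and 693, 724 and 707 CPM at P14. The stages did not overlap within either tissue, and from P4 every SAN library was above every RA library of its stage. The rise to P14 was 2.11 ± 0.17 log2 units in SAN (SE, adjusted p = 1.2e-08) and 1.22 ± 0.17 in RA (adjusted p = 1.8e-05). The difference between these rises was 0.89 ± 0.24, and its adjusted p rounded to 0.050 without falling below the threshold. Cd36 is also abundant in capillary endothelium and macrophages, and the 12 endothelial markers summed to 634 to 1011 CPM in SAN at E14.5 and 1356 to 1454 CPM at P14, against 1796 to 2318 CPM and 1867 to 2087 CPM in RA. The macrophage markers summed to 157 to 294 CPM in SAN and 139 to 240.1 CPM in RA at P4, and to 543 to 707 CPM and 238 to 276 CPM at P14. The part of either cell type in the level of Cd36 was not tested.

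Slc27a1 encodes fatty acid transport protein 1, which also acts as an acyl-CoA synthetase. It stood at 12.2, 16.6 and 7.39 CPM in RA and 5.06, 15.3 and 17.4 CPM in SAN at E14.5. At P4 the values were 41.5, 42.3 and 17.6 CPM in RA and 57.4, 33.2 and 25.4 CPM in SAN, and at P14 67.5, 68.1 and 87.3 CPM and 81.8, 73.0 and 88.4 CPM. The tissues overlapped at every stage, while all P14 libraries lay above all earlier ones. Slc27a1 rose by 2.75 ± 0.41 in SAN (adjusted p = 4.2e-05) and 2.58 ± 0.41 in RA (adjusted p = 9.0e-05).

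Lpl, the lipoprotein lipase, was at 219, 255 and 242 CPM in RA and 355, 356 and 295 CPM in SAN at E14.5. It was at 492, 628 and 641 CPM in RA and 666, 402 and 358 CPM in SAN at P4, and at 549.5, 567 and 599 CPM in RA and 407, 529 and 564 CPM in SAN at P14. The SAN libraries were above the RA libraries at E14.5 and overlapped with them later. The rise was 1.26 ± 0.20 in RA (adjusted p = 7.1e-05) and 0.57 ± 0.20 in SAN (adjusted p = 0.04), and the call in SAN was lost with no filter on low genes and when any of 5 single libraries was left out, with adjusted p up to 0.14. Most of the change came before P4, since the step from E14.5 to P4 was 0.87 ± 0.14 over both tissues (adjusted p = 1.6e-04) and the step from P4 to P14 was 0.04 ± 0.14 (adjusted p = 0.88).

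Fabp3, the heart fatty acid-binding protein that carries fatty acids through the cytosol, followed another course. Its levels in RA were 65.7, 50.5 and 88.0 CPM at E14.5, 195, 189.6 and 118 CPM at P4 and 236, 119 and 316 CPM at P14. In SAN they were 284, 276 and 254 CPM, 572, 396 and 268 CPM and 301, 323 and 250.3 CPM. The E14.5 libraries of SAN lay within the range of its P14 libraries and above all RA libraries of E14.5, and the tissues overlapped at P14. Fabp3 rose in RA by 1.63 ± 0.30 (adjusted p = 4.3e-04) and differed by 0.10 ± 0.30 in SAN (adjusted p = 0.86). The difference between the tissues in this change was −1.53 ± 0.43 (adjusted p = 0.062), above the threshold in limma and below it with DESeq2 on the recovered reads (adjusted p = 0.0078) and without RA E14.5 replicate 3 (0.048) or RA P14 replicate 2 (0.014). The fifth uptake gene, Slc22a5, the carnitine transporter, ranged from 6.03 to 36.4 CPM and was called in no comparison by limma. Its P14 libraries lay above those of E14.5 in both tissues, and DESeq2 called it higher in SAN by 1.17 (adjusted p = 0.030).

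Of the genes that activate fatty acids by joining them to coenzyme A, Acsl1 and Acsl3 moved in opposite directions. Acsl1, the main long-chain acyl-CoA synthetase of adult heart, was at 57.5, 45.7 and 47.5 CPM in RA and 55.2, 41.7 and 22.4 CPM in SAN at E14.5. At P4 it was at 289.7, 304 and 278 CPM in RA and 339, 222 and 208 CPM in SAN, and at P14 at 455, 530.5 and 456 CPM in RA and 219, 333 and 281 CPM in SAN. No library of P4 or P14 came near those of E14.5, and at P14 the SAN libraries lay below all RA libraries. The rise was 2.84 ± 0.25 in SAN (adjusted p = 5.6e-08) and 3.24 ± 0.25 in RA (adjusted p = 9.8e-09).

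Acsl3, a synthetase of the endoplasmic reticulum and lipid droplets, was at 40.3, 36.1 and 45.0 CPM in RA and 67.2, 58.8 and 42.1 CPM in SAN at E14.5. Its P4 values were 22.9, 31.9 and 5.16 CPM in RA and 53.6, 31.8 and 26.4 CPM in SAN, and its P14 values 7.59, 5.61 and 9.45 CPM in RA and 9.74, 14.5 and 16.5 CPM in SAN. Every P14 library was below every E14.5 library of its tissue. Acsl3 fell, with a log2 difference of −1.97 ± 0.46 in SAN (adjusted p = 0.0028) and −2.30 ± 0.46 in RA (adjusted p = 8.0e-04), the one gene of the set that fell in both tissues.

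The ratio of Acsl1 to Acsl3 within a library needs no common scaling, and its change rather than its size is informative because the genes differ in length. The log2 ratio was 0.30 ± 0.22 in RA and −0.55 ± 0.31 in SAN at E14.5 (SD, n = 3), and 5.84 ± 0.45 and 4.27 ± 0.22 at P14. From E14.5 to P14 it rose by 5.17 over both tissues, with p = 0.005 in a two-sided exact permutation test of stage within tissue, the smallest p that its 400 assignments allow. It was lower in SAN than in RA by 1.25 averaged over stages (difference −1.25; p = 0.00025 in an exact permutation test of tissue within stage, the smallest p of 8000 assignments). Adjusted over 4 ratio tests these p-values were 0.0067 and 0.001. SAN libraries lay below RA libraries in this ratio at every stage.

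**Figure D2:**
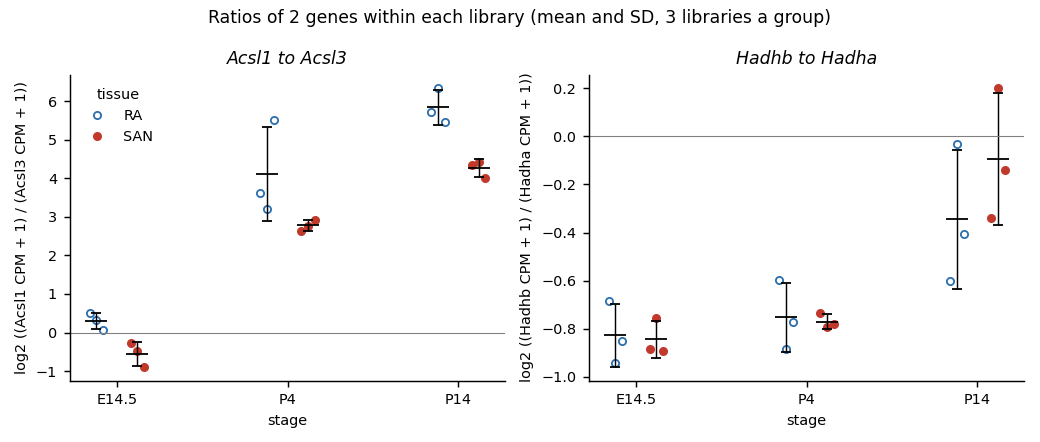
The log2 ratio of Acsl1 to Acsl3 (left) and of Hadhb to Hadha (right) is plotted for each library against stage, with open blue circles for RA, filled red circles for SAN, and black bars for the mean and SD of 3 libraries. The first ratio climbs from about 0 at E14.5 to above 4 at P14, with SAN below RA, and the second has group means from −0.84 to −0.75 at E14.5 and P4 and is higher at P14.

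Acsl6 was low, at 1.80, 2.03 and 0.445 CPM in RA and 0, 0.185 and 1.30 CPM in SAN at E14.5. It was at 1.32, 1.26 and 5.60 CPM in RA and 1.19, 2.31 and 0 CPM in SAN at P4, and at 6.13, 2.14 and 8.42 CPM and 9.74, 6.66 and 10.9 CPM at P14. It rose in SAN by 2.83 ± 0.58 (adjusted p = 0.001), where every P14 library was above every earlier one, and differed by 1.37 ± 0.58 in RA (adjusted p = 0.095). Acsl5 ranged from 11.01 to 57.8 CPM and was called between tissues but not between stages by limma as fitted here. With sarcomere scaling it was lower at P14 in RA (−1.04, adjusted p = 0.016), and DESeq2 called it higher in SAN by 0.73 (adjusted p = 0.042). Acsl4, which prefers arachidonic acid, Acot2, a mitochondrial acyl-CoA thioesterase, and Mlycd, the malonyl-CoA decarboxylase, were called in no comparison by limma as fitted here. Acot2 was called higher at P14 in RA with upper-quartile scaling, by edgeR (1.30, adjusted p = 0.017) and by DESeq2, and DESeq2 also called Mlycd higher in RA (adjusted p = 0.046) and Acsl4 higher in SAN (adjusted p = 0.038). Acot2 and the peroxisomal gene Acaa1a have close paralogs in mouse, and reads may be split between them.

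Among the carnitine genes with a row, 3 of 4 rose in SAN and 2 of 4 in RA, against 9.74% and 5.99% of all genes called higher. Crat, the carnitine acetyltransferase that moves short acyl groups, was at 99.2, 72.4 and 81.3 CPM in RA and 85.6, 94.8 and 105 CPM in SAN at E14.5. It was at 219, 141 and 75.8 CPM in RA and 336, 164 and 223 CPM in SAN at P4, and at 262, 278 and 309 CPM in RA and 261, 209.5 and 275 CPM in SAN at P14. The P14 libraries were all above those of E14.5, and at P4 RA replicate 3 stayed within the E14.5 range. Crat rose by 1.37 ± 0.29 in SAN (adjusted p = 0.0012) and 1.74 ± 0.29 in RA (adjusted p = 1.1e-04). Cpt2, the inner membrane transferase, rose by 0.70 ± 0.24 in SAN and 0.74 ± 0.24 in RA, and Slc25a20, the carnitine-acylcarnitine translocase, rose by 0.81 ± 0.26 in SAN. Leaving out single libraries ended the calls for Cpt2 and Slc25a20, with adjusted p up to 0.14 and 0.11. Cpt1a, the outer membrane transferase and the step that malonyl-CoA inhibits, rose over both tissues from E14.5 to P4 by 0.75 ± 0.18 (adjusted p = 0.0051). Its difference from E14.5 to P14 was 0.51 ± 0.25 in SAN (adjusted p = 0.15) and 0.55 ± 0.25 in RA (adjusted p = 0.11). Upper-quartile scaling, edgeR and DESeq2 called Cpt1a higher in RA (adjusted p = 0.013, 0.012 and 0.0031). DESeq2 and sarcomere scaling called it higher in SAN (adjusted p = 0.028 and 0.025). Slc25a20 was called higher in RA with upper-quartile scaling, edgeR and DESeq2 (adjusted p = 0.021, 0.016 and 0.0028).

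Of the 11 genes of mitochondrial beta oxidation, 2 rose and 1 fell in SAN, or 27.3%, near the 24.3% of all genes, and 5 rose in RA, or 45.5% against 22.7%. These counts are those of limma, and DESeq2 called further genes higher in both tissues. Hadhb, the beta subunit of the mitochondrial trifunctional protein, was at 203, 169.8 and 172 CPM in RA and 201, 203 and 191 CPM in SAN at E14.5. At P4 it was at 260.3, 193 and 214 CPM in RA and 380.2, 243 and 269 CPM in SAN, and at P14 at 281, 385 and 283 CPM in RA and 406, 389 and 410.1 CPM in SAN. The P14 libraries lay above the others of their tissue. It rose by 1.01 ± 0.18 in SAN (adjusted p = 3.0e-04) and 0.78 ± 0.18 in RA (adjusted p = 0.0033). Hadha, which encodes the alpha subunit of the same complex, differed by 0.26 ± 0.17 in SAN (adjusted p = 0.29) and 0.30 ± 0.17 in RA (adjusted p = 0.21).

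The ratio of Hadhb to Hadha compares the subunits within a library. It was chosen after the values were seen, and neither its p-values nor their adjustment allows for that choice. Its log2 value was −0.84 ± 0.08 in SAN and −0.83 ± 0.13 in RA at E14.5 (SD, n = 3), −0.77 ± 0.03 and −0.75 ± 0.14 at P4, and −0.09 ± 0.27 and −0.35 ± 0.29 at P14. From E14.5 to P14 it rose by 0.62 (p = 0.005 in a two-sided exact permutation test, the smallest of 400 assignments, and 0.0067 adjusted over 4 tests). Between tissues the difference was 0.07 (p = 0.435, exact permutation test), which did not pass.

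Decr1, the dienoyl-CoA reductase needed for unsaturated fatty acids, was at 56.0, 56.2 and 62.3 CPM in RA and 41.1, 99.7 and 56.8 CPM in SAN at E14.5. It was at 86.3, 84.6 and 138 CPM in RA and 118, 95.4 and 91.2 CPM in SAN at P4, and at 117, 119 and 143 CPM in RA and 109, 132 and 114 CPM in SAN at P14. SAN E14.5 replicate 1, the library with Myl2, was the lowest of all, and replicate 2 reached the P4 range. Decr1 rose by 1.10 ± 0.26 in RA (adjusted p = 0.0036) and 0.93 ± 0.26 in SAN (adjusted p = 0.011), and the call in SAN was lost without SAN E14.5 replicate 1 (adjusted p = 0.095).

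Acadm, the medium-chain acyl-CoA dehydrogenase, rose in RA by 0.86 ± 0.22 (adjusted p = 0.0066). Acaa2, the mitochondrial thiolase, rose there by 0.80 ± 0.22 and Acat1, the acetoacetyl-CoA thiolase, by 0.57 ± 0.20. Acat1 lost its call without any 1 of the 6 RA libraries of these stages, with adjusted p up to 0.30. In SAN these 3 genes had log2 differences of 0.45, 0.47 and 0.40 in limma, with adjusted p of 0.15, 0.13 and 0.16. DESeq2 called all 3 higher in SAN (adjusted p = 0.041, 0.032 and 0.028), as did limma with sarcomere scaling (adjusted p = 0.030, 0.016 and 0.035). Acads, the short-chain dehydrogenase, fell in SAN with −0.86 ± 0.30 (adjusted p = 0.041), a call lost with upper-quartile or sarcomere scaling, with edgeR and DESeq2, and without any of 5 libraries, with adjusted p up to 0.18. Acadl, the long-chain dehydrogenase, differed by 0.00 in SAN and 0.27 in RA between E14.5 and P14, but was higher at P4 than at E14.5 by 0.54 ± 0.14 over both tissues (adjusted p = 0.01). Acadvl, the very long-chain dehydrogenase, Hadha, Hadh, the short-chain hydroxyacyl-CoA dehydrogenase, and Echs1, the short-chain enoyl-CoA hydratase, were called in no comparison by limma as fitted here. DESeq2 called Hadha higher at P14 in RA by 0.69 (adjusted p = 0.0088). Acadvl had a difference of 1.58 ± 0.64 in SAN (adjusted p = 0.079) and 1.76 ± 0.64 in RA (adjusted p = 0.053). DESeq2 called it higher by 2.00 in SAN (adjusted p = 0.008) and 2.28 in RA (adjusted p = 0.0025), edgeR called it in both tissues, and limma did so with a pseudocount of 5. Acadvl had as few as 2 reads in a library, and its values reached from 0.43 to 30.4 CPM.

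Electron transfer flavoprotein and its oxidoreductase pass electrons from the acyl-CoA dehydrogenases to the respiratory chain. Etfdh, the oxidoreductase, was at 148, 128 and 129.5 CPM in RA at E14.5 and 204, 226 and 228 CPM at P14, without overlap, and rose by 0.70 ± 0.17 (adjusted p = 0.0054). In SAN its levels overlapped between the stages, at 204, 169.5 and 152 CPM and 178, 185 and 227 CPM. The log2 differences of Etfa and Etfb, the flavoprotein subunits, were 0.62 and 0.59 in RA (adjusted p = 0.097 and 0.11) and −0.12 and −0.07 in SAN. The peroxisomal genes Acaa1a, a thiolase, and Ehhadh, a bifunctional hydratase and dehydrogenase, were called in no comparison.

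Lipolysis genes release fatty acids from stored triglyceride. Pnpla2, the adipose triglyceride lipase, was at 25.8, 31.1 and 40.0 CPM in RA and 34.0, 28.7 and 31.4 CPM in SAN at E14.5. Its P4 levels were 59.9, 57.7 and 36.8 CPM in RA and 88.7, 71.4 and 67.8 CPM in SAN, and its P14 levels 119, 118 and 114 CPM in RA and 133, 133 and 111 CPM in SAN. The stages stood apart in SAN, and in RA P4 replicate 3 fell into the E14.5 range. The rise was 1.97 ± 0.23 in SAN (adjusted p = 2.3e-06) and 1.85 ± 0.23 in RA (adjusted p = 5.0e-06), and it spread over both intervals, with 0.94 ± 0.16 from E14.5 to P4 and 0.96 ± 0.16 from P4 to P14 over both tissues. Lipe, the hormone-sensitive lipase, rose in SAN by 1.94 ± 0.60 (adjusted p = 0.02), and lost its call without any of 3 libraries, with adjusted p up to 0.11.

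Ucp3, a mitochondrial inner membrane protein of the uncoupling protein family, came on late. It was listed at 0 in all 6 SAN libraries of E14.5 and P4, and was at 1.39, 3.599 and 4.64 CPM at P14. In RA it was at 0.113, 0 and 1.07 CPM at E14.5, 0.203, 0.838 and 0 CPM at P4 and 3.504, 16.9 and 7.09 CPM at P14. The mean at P14 in SAN, 3.21 CPM, was at least 10.7-fold higher than at E14.5, taking the highest floor of 3 reads in 1 library, 0.301 CPM. On the scale of log2(CPM + 1), which understates changes of low genes, Ucp3 rose by 1.99 ± 0.49 in SAN (adjusted p = 0.0045) and 2.72 ± 0.49 in RA (adjusted p = 3.0e-04), and the step from P4 to P14 was 2.36 ± 0.34 over both tissues (adjusted p = 9.1e-05).

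**Figure D3:**
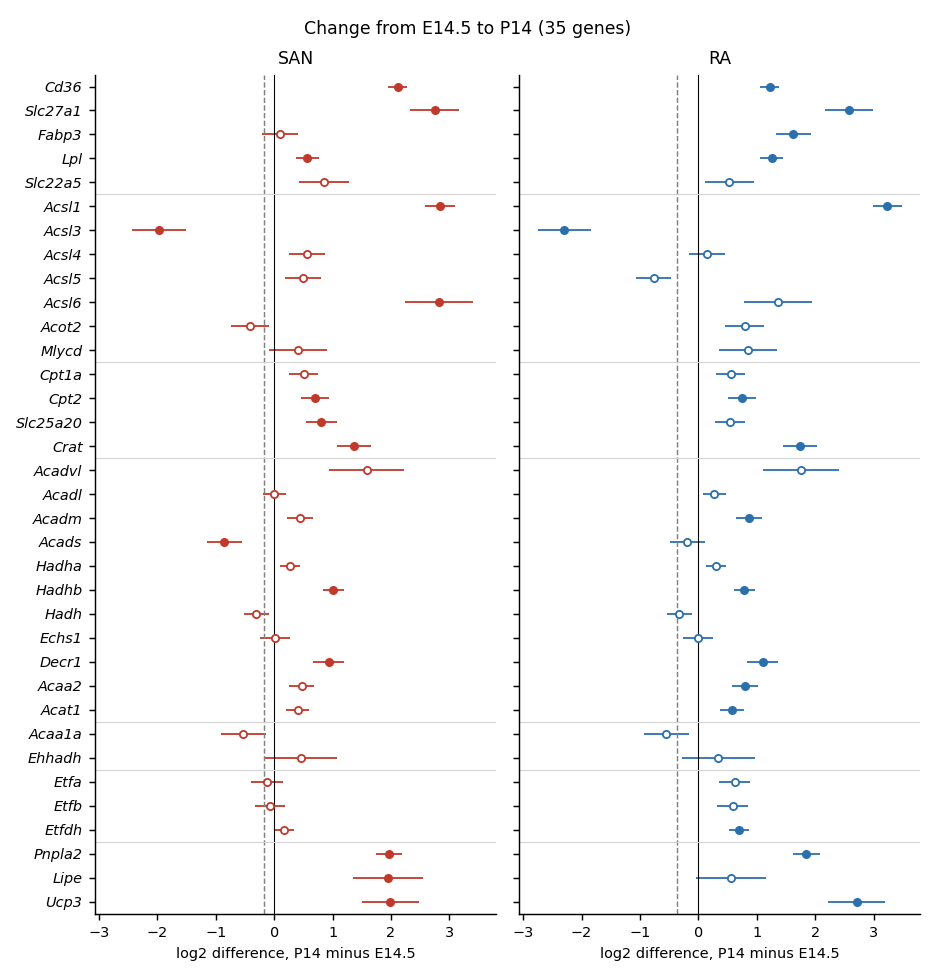
The log2 difference between P14 and E14.5 (x axis) is shown with its SE for each of 35 genes in SAN (left, red) and RA (right, blue), filled where called; grey lines part the roles from uptake at the top to lipolysis and Ucp3 at the bottom, and dashed lines mark the median of all genes tested, −0.18 and −0.37. Acsl1, Slc27a1, Cd36, Pnpla2 and Ucp3 lie far to the right in both tissues and Acsl3 far to the left.

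The change between the tissues was itself tested. No gene of the 35 was called in the difference between the SAN and RA changes by limma, against 2.27% of all genes tested. An unadjusted p under 0.05 was found for 6 of the 35 and for 14.9% of all genes. The count was 0 with edgeR and 1, Fabp3, with DESeq2. So the genes called in SAN alone (Acsl6, Lipe and Slc25a20) and in RA alone (Acaa2, Acadm, Acat1 and Etfdh) were not shown to change differently. Fabp3, also called in RA alone, passed in this test with DESeq2, with upper-quartile scaling (−1.71, adjusted p = 0.046) and without either of 2 RA libraries, and did not pass in limma as fitted here. Cd36 passed with a pseudocount of 5, with sarcomere scaling and without RA P14 replicate 3, at adjusted p between 0.0016 and 0.039. Acsl5 passed with sarcomere scaling alone (1.75, adjusted p = 0.0193).

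By interval, 11 genes were higher at P4 than at E14.5 over both tissues and none was lower (31.4% of the set, against 6.07% of all genes higher and 8.11% lower), or 8 and 2 with sarcomere scaling. From P4 to P14, 6 rose and 1 fell (against 3.88% of all genes higher and 9.83% lower). That count of 7 was 12 with edgeR or sarcomere scaling, 15 with upper-quartile scaling and 16 with DESeq2. Acsl1 took 2.61 ± 0.18 of its change before P4 and 0.43 ± 0.18 after it (adjusted p = 1.8e-09 and 0.12), and the second step passed with upper-quartile scaling, edgeR and DESeq2, at adjusted p from 0.016 to 0.048. Cd36, Slc27a1, Pnpla2 and Hadhb were called in both intervals, and Acsl6 and Ucp3 in the second, with 1.61 ± 0.41 for Acsl6 (adjusted p = 0.011, and 0.12 in edgeR). Hadhb lost its call for the first interval with sarcomere scaling and without any of 7 libraries, with adjusted p up to 0.27. Acsl3 fell in the second interval with −1.18 ± 0.32 (adjusted p = 0.016), and without RA P4 replicate 2 the difference was −0.94 and no longer called (adjusted p = 0.056).

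Promoter sequences are shown for genes that stand for different courses: Cd36, which rose in both tissues and ended higher in SAN, Ucp3, which came on at P14, Cpt1a, which was higher in SAN, and Hadhb, which rose while its partner Hadha was not called by limma. Each is the 250 bases before the annotated start of transcription on the gene's strand, from RefSeq on GRCm38.p6, a build other than the mm8 named for these data. Capitals mark AGGTCA on either strand (TGACCT where the match is on the other strand), the half-site bound by PPAR, RXR and ERR receptors.
Cd36, chr5:17835897-17836146, minus strand: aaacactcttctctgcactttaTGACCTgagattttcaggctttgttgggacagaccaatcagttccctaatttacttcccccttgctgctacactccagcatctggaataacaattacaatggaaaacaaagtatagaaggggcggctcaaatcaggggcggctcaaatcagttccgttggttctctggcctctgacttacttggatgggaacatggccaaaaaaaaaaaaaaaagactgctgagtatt
Ucp3, chr7:100472741-100472990, plus strand: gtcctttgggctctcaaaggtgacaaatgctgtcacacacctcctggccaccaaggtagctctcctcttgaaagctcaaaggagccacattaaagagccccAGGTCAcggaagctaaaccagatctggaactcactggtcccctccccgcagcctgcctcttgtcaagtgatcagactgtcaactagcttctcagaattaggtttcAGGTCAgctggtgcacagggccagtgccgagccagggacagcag
Cpt1a, chr19:3323051-3323300, plus strand: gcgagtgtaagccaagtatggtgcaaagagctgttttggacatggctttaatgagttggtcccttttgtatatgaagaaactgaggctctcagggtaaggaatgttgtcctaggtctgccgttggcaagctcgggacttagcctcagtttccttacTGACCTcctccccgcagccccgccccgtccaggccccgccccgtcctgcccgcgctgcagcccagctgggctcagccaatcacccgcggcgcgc
Hadhb, chr5:30155003-30155252, plus strand: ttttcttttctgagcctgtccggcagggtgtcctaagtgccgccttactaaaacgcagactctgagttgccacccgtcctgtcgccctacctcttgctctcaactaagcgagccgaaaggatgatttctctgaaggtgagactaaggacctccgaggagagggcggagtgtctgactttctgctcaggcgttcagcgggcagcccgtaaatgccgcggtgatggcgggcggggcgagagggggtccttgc

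The match in Cd36 begins 228 bases before the start, that in Cpt1a 94 bases before it, and those in Ucp3 149 and 44 bases before it. Hadha and Hadhb start in opposite directions with 272 bases between their starts, so the Hadhb sequence is also the upstream region of Hadha, and it holds no match. Of 36 windows of these 250 bases for the 30 genes that matched a RefSeq entry, 7 held AGGTCA on either strand (19.4%), against 14% of all 32851 windows of that length. They belonged to Acadm, Acadvl, Acsl6, Cd36, Cpt1a, Echs1 and Ucp3. The direct repeat AGGTCANAGGTCA, which contains the half-site, was in none of the 36 windows and in 0.0335% of all. A match describes these letters and is not a binding site.

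Fewer genes of the set were called between tissues than between stages. Averaged over the 3 stages, 4 of 35 genes were higher in SAN and 2 lower (17.1% of the set against 11.5% of all genes tested, with 6.11% higher and 5.36% lower), or 7 and 1 with sarcomere scaling. The median log2 difference was 0.11 for the set and −0.01 for all genes. The higher genes were Fabp3 at 1.25 ± 0.17 (adjusted p = 2.2e-05), Cd36 at 0.49 ± 0.10 (adjusted p = 0.0012), Cpt1a at 0.62 ± 0.14 (adjusted p = 0.0048) and Acadl at 0.43 ± 0.11 (adjusted p = 0.012). Acsl5, a synthetase linked to triglyceride synthesis, was lower at −0.86 ± 0.17 (adjusted p = 0.0016), and Acsl1 was lower at −0.48 ± 0.15 (adjusted p = 0.036), a call lost in 15 of 27 alternatives, 11 of which leave out 1 library, with adjusted p up to 0.10. Ucp3 differed by −0.64 ± 0.28 (adjusted p = 0.17) and was called lower in SAN by edgeR and DESeq2 (adjusted p = 0.011 and 0.0012), whose fitted folds depend on the handling of its libraries at 0.

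Cpt1a stood at 96.4, 93.5 and 75.7 CPM in SAN and 68.9, 63.2 and 39.0 CPM in RA at E14.5, 169, 173 and 107 CPM and 96.4, 119 and 77.0 CPM at P4, and 121, 136 and 120.1 CPM and 75.1, 104 and 69.999 CPM at P14. The tissues did not overlap at E14.5 and P14 and overlapped at P4. Acsl5 stood at 16.9, 18.7 and 12.3 CPM in SAN and 38.6, 57.8 and 45.0 CPM in RA at E14.5, 11.01, 14.5 and 17.0 CPM and 29.8, 27.2 and 20.4 CPM at P4, and 18.5, 22.1 and 28.2 CPM and 28.2, 25.6 and 27.0 CPM at P14. All SAN libraries were lower at E14.5 and P4, and the tissues overlapped at P14. Endothelial markers summed to 634 to 1011 CPM in SAN and 1796 to 2318 CPM in RA at E14.5, and to 826 to 1263 CPM and 1509 to 2019 CPM at P4. At P14 the endothelial markers summed to 1356 to 1454 CPM in SAN and 1867 to 2087 CPM in RA. The part of endothelium in the level of Acsl5 was not tested.

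At E14.5 the calls were Fabp3, higher in SAN by 2.01 ± 0.30 (adjusted p = 1.8e-04), and Acsl5, lower at −1.50 ± 0.30 (adjusted p = 0.0034), which makes 2 of 35 genes or 5.71% against 5.33% of all genes (2.24% higher and 3.09% lower). At P4 Fabp3, at 1.26 ± 0.30 (adjusted p = 0.012), and Cd36, at 0.89 ± 0.17 (adjusted p = 0.0014), were higher in SAN (5.71% against 5.96% of all genes, 2.97% higher and 2.99% lower), and Fabp3 lost its call without RA P4 replicate 3 or SAN P4 replicate 1, with adjusted p up to 0.087. At P14 Cd36 was called, higher by 0.74 ± 0.17 (adjusted p = 0.01; 2.86% against 4.55% of all genes, 3.21% higher and 1.34% lower). That call was lost with upper-quartile scaling, with edgeR and without RA P14 replicate 2, with adjusted p up to 0.086, and with upper-quartile scaling Acsl1 was the gene called, as lower in SAN. These shares were near those of all genes. The median of the set against that of all genes was 0.13 and −0.07 at E14.5, 0.32 and −0.07 at P4, and −0.03 and 0.10 at P14.

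**Figure D4:**
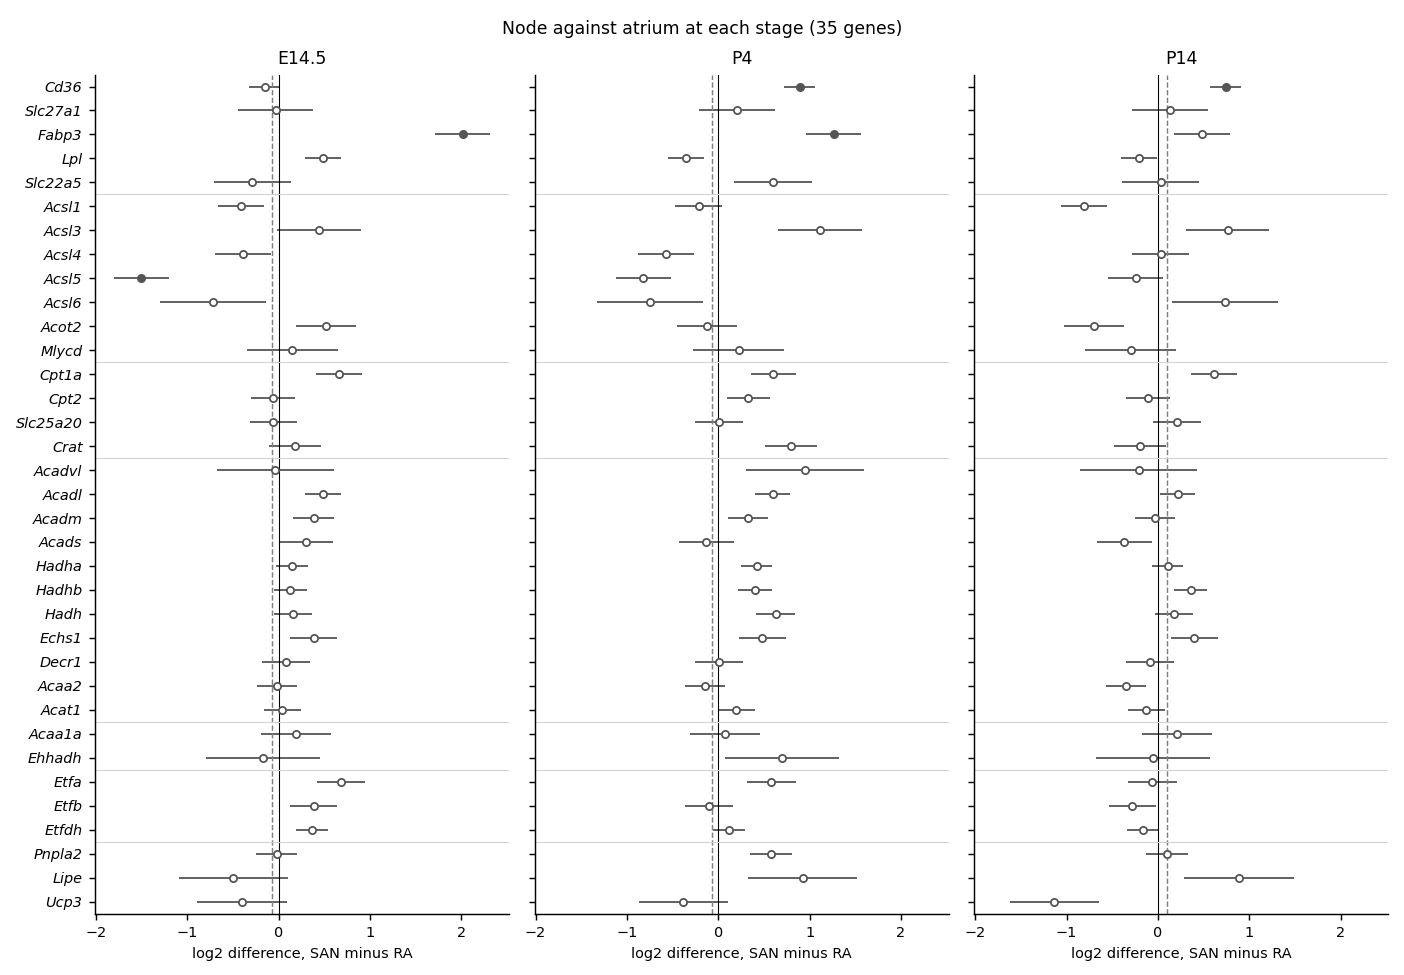
The log2 difference between SAN and RA (x axis) is shown with its SE for the 35 genes at E14.5, P4 and P14, filled where called, with the median of all genes as a dashed line and grey lines between roles. Fabp3 moves toward 0 from E14.5 to P14, while Cd36 lies near 0 at E14.5 and to the right at P4 and P14.

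Other genes of the pathway were read from lists drawn up by function. Of 12 genes known to respond to PPAR receptors, 7 rose in SAN and 5 in RA from E14.5 to P14 and none fell, with 24.3% and 22.7% of all genes called. Plin4, a lipid droplet coat protein, went from 2.33 ± 1.54 to 74.4 ± 9.15 CPM in SAN (SD, n = 3), a rise of 4.63 ± 0.42, and rose in RA by 4.97 ± 0.42. Pdk4, the kinase that closes pyruvate dehydrogenase to glucose carbon, rose by 2.01 ± 0.26 in SAN and 1.38 ± 0.26 in RA. Vldlr, the very low density lipoprotein receptor, rose by 1.61 ± 0.17 in SAN and 2.96 ± 0.17 in RA, and Fabp4, the adipocyte and endothelial fatty acid-binding protein, rose in RA by 5.12 ± 0.49. Of 8 adipocyte markers only Cidea had a row, at 0.50 to 2.84 CPM in SAN at E14.5 and 4.80 to 15.9 CPM at P14.

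Among 22 regulators, 5 rose and 1 fell in SAN and 3 rose and 1 fell in RA, shares near those of all genes (27.3% against 24.3% and 18.2% against 22.7%). Nuclear receptor genes were called in both directions. Ppard, a PPAR, rose in SAN by 1.53 ± 0.32 (adjusted p = 0.0011), and Ppara, the PPAR of oxidative tissue, rose in RA by 2.25 ± 0.61 (adjusted p = 0.01). Esrrg, an ERR that activates oxidative genes, fell, with −1.79 ± 0.30 in SAN and −1.03 ± 0.30 in RA, and averaged over stages it was higher in SAN by 1.01 ± 0.18 (adjusted p = 3.1e-04). Its levels were 265 ± 33.3 CPM in SAN and 108 ± 16.9 CPM in RA at E14.5, and 76.3 ± 13.2 CPM and 52.5 ± 8.55 CPM at P14 (SD, n = 3). Klf15, a factor that raises lipid use in heart, rose in SAN by 3.02 ± 0.68, and Nrip1, a corepressor of oxidative genes, by 1.34 ± 0.19. In RA the coactivator genes Lpin1 and Ppargc1b rose by 2.36 ± 0.32 and 1.47 ± 0.32. In limma's difference between the SAN and RA changes Nrip1 was called (1.11, adjusted p = 0.026). Ppard, Ppara, Klf15, Lpin1 and Ppargc1b were not called in it, with adjusted p from 0.21 to 0.63, so they were not shown to change differently. Between tissues Ppargc1b was higher in SAN by 0.79 ± 0.19, Esrrb was lower at −1.51 ± 0.35, and Prkaa2, a catalytic subunit of AMP-activated kinase, was lower at −0.57 ± 0.13.

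Of 32 other beta oxidation genes tested, 5 rose and 2 fell in SAN and 6 rose and 2 fell in RA, also near the shares of all genes (21.9% and 25%). Ech1, an isomerase for unsaturated chains, rose by 1.66 ± 0.30 in SAN and 1.96 ± 0.30 in RA, and Scp2, a peroxisomal thiolase and lipid carrier, by 0.72 ± 0.19 and 1.14 ± 0.19. Of 18 other genes of uptake and storage, 3 rose and 2 fell in SAN (27.8% against 24.3% of all genes) and 5 rose and 1 fell in RA (33.3% against 22.7%). Mgll, the monoglyceride lipase, rose by 1.87 ± 0.30 in SAN and 2.63 ± 0.30 in RA, and Dgat2, which makes triglyceride, by 2.90 ± 0.51 and 2.46 ± 0.51. Gpihbp1, the endothelial anchor of lipoprotein lipase, rose in RA by 2.93 ± 0.50. Fabp5, a binding protein of endothelium and other cells, fell in SAN with −1.32 ± 0.31 and was lower in SAN than in RA, at −2.37 ± 0.18 (adjusted p = 2.5e-09) over the stages. Neither Gpihbp1 nor Fabp5 was called by limma in the difference between the tissues' changes (adjusted p = 0.26 and 0.46).

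Of all genes tested, 9.74% rose and 14.5% fell in SAN, and 5.99% rose and 16.7% fell in RA. Of 12 genes of fatty acid synthesis, 6 fell and 1 rose in RA, and 2 fell and 1 rose in SAN. Scd2, a desaturase, fell with −1.89 ± 0.20 in SAN and −1.33 ± 0.20 in RA, Elovl6, an elongase, with −1.60 ± 0.57 and −2.84 ± 0.57, and Fasn, the synthase, with −1.14 ± 0.26 in RA. Scd1 rose in SAN by 2.49 ± 0.47. Of 20 glycolysis genes, 13 fell and 2 rose in SAN and 7 fell and 4 rose in RA. Slc2a1, the fetal glucose transporter, fell with −3.26 ± 0.26 in SAN and −3.30 ± 0.26 in RA. Of 22 respiratory chain genes, 2 rose in SAN and 15 in RA, with 1.46 ± 0.36 and 1.97 ± 0.36 for Cox7a1, a cytochrome c oxidase subunit of muscle. In limma's difference between the SAN and RA changes Ndufb5, another of these genes, was called (−1.25, adjusted p = 0.034). Cox7a1 was not called in it (adjusted p = 0.72). Among genes of ketone body use, Oxct1, which activates acetoacetate, rose in SAN by 0.93 ± 0.22, and Acat2, a cytosolic thiolase, fell in RA with −1.17 ± 0.39. Fasn, Scd1, Oxct1 and Acat2 were not called by limma in the difference between the tissues' changes (adjusted p from 0.27 to 0.88).

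The E12.5 libraries were compared to see what loss of Isl1, a LIM homeodomain factor of the node, did to the set. Isl1 stood at 67.4, 88.5, 47.8 and 83.2 CPM in the 4 CreNeg libraries and at 71.7 and 53.9 CPM in the libraries labelled CrePos replicates 1 and 3, within the CreNeg range. Reads were totalled per gene, and which exons are floxed is not given in the sources used here, so the value does not check the labels. CrePos replicate 2, left out, had 2.85 CPM of Isl1 and 1032 CPM of Myl2. Tbx3, a factor that keeps the atrial muscle genes off in the node, was at 52.5 to 152 CPM in the CreNeg libraries and at 19.0 and 5.57 CPM in the 2 libraries labelled CrePos.

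Of the 35 genes, 33 passed the filter in this comparison and none was called by limma, against 2% of the 14595 genes tested. An unadjusted p under 0.05 was found for 3 of the 33 and for 20.2% of all genes tested. With edgeR 1 was called (Acaa2) and with DESeq2 5 (Acadl, Cd36, Hadha, Etfb and Acaa2), all higher in the libraries labelled CrePos. The 2% is limma's share, and the shares of all genes called by edgeR and DESeq2 are not given here. These counts therefore cannot be read as particular to the set. The median was −0.05 for the set and −0.42 for all genes, and with upper-quartile scaling 0.39 and −0.03. The set's median lay above that of all genes in both, while its sign depends on the scaling. Lpl was at 83.2, 134, 75.3 and 85.1 CPM in CreNeg and 57.0 and 36.1 CPM in the libraries labelled CrePos, without overlap. Its difference was −1.001 ± 0.28 (adjusted p = 0.089). Among the alternatives Lpl was called only with all 3 CrePos libraries, which adds the one marked as an outlier (−1.09, adjusted p = 0.042). Slc27a1 was at 7.10, 4.94, 10.3 and 12.1 CPM and 4.22 and 1.74 CPM, a difference of −1.28 ± 0.48 (adjusted p = 0.17). Acaa2 was at 82.3, 52.4, 80.3 and 69.9 CPM and 129 and 86.2 CPM, with 0.58 ± 0.26 (adjusted p = 0.24), and limma called it higher with upper-quartile scaling (1.03, adjusted p = 0.0265). Fibroblast markers summed to 2726 to 5106 CPM in CreNeg and 1200.3 to 1881 CPM in the libraries labelled CrePos. That is lower in CrePos, as for Lpl and Slc27a1 and unlike Acaa2, and the part of fibroblasts was not tested. Outside the set, Esrrg was lower at −1.47 ± 0.25 (adjusted p = 0.004) and Slc2a1 higher at 1.13 ± 0.26 (adjusted p = 0.036).

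**Figure D5:**
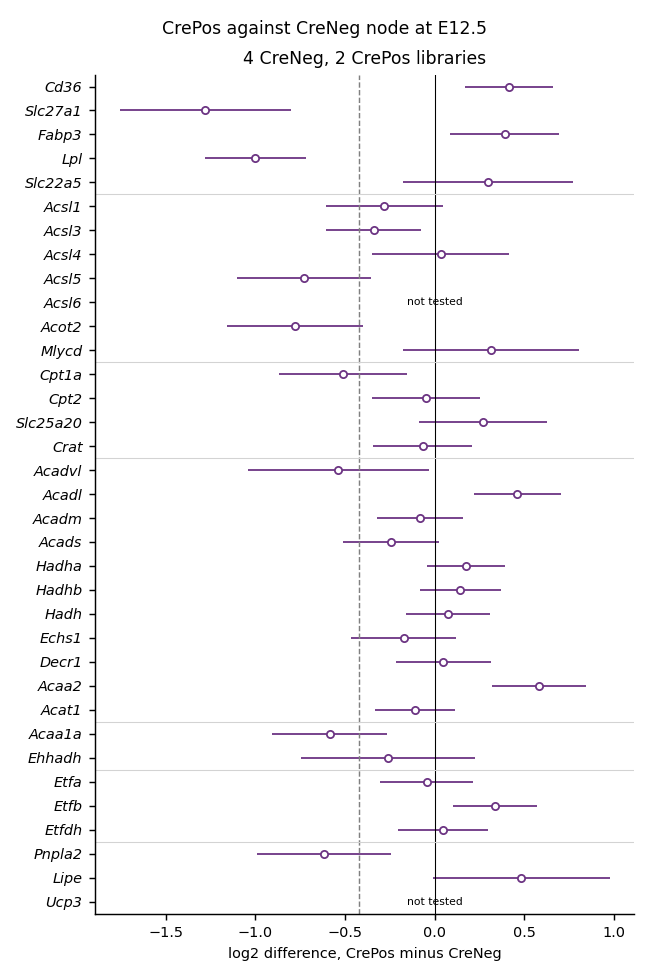
The log2 difference between 2 libraries labelled CrePos and 4 CreNeg libraries (x axis) is shown with its SE for 33 genes at E12.5, with the median of all genes tested, −0.42, as a dashed line; open circles mark that none was called. Acsl6 and Ucp3 were not tested, and Slc27a1 and Lpl lie farthest to the left.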

How the data were processed

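RNA was amplified from laser-captured SAN and RA and sequenced in 25 libraries. The deposited values are a signal per gene, whole reads multiplied by 1 factor per library, and the unit was read from the values. Per the submitters' processing notes TopHat2 2.0.6, edgeR and mm8 were used, with no role given. Whole reads were recovered for at least 99.9952% of values in every library (tolerance 0.1 read). CPM is the deposited signal divided by 24.3374. Labels matched all columns, and 0 columns were unused.

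Tests used limma 3.58.1 with a trend on log2(CPM + 1) in R 4.3.3, adjusted by Benjamini-Hochberg over all genes tested. The 18 libraries were fitted with 6 group means (17568 genes of at least 1 CPM in at least 3 libraries). The E12.5 fit held 4 CreNeg and 2 CrePos libraries (14595 genes of at least 1 CPM in at least 2), leaving out CrePos replicate 2. Fold changes are on the log2(CPM + 1) scale, which understates low genes. Ratios were compared by exact permutation within strata, adjusted over 4 tests. The planned ratio of Cpt1b to Cpt1a was not computed, because Cpt1b was not analysed here, and Hadhb to Hadha was added after the values were seen.

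The members and all lists were chosen with earlier results of these data known. Up to 14 members were named per comparison, by adjusted p among those called, and Acads in SAN and Cpt2 and Acat1 in RA were named outside that rule after their values were seen, as were the values by library of Cpt1a, Acsl5, Etfdh and Acaa2 beyond the 12 members that the rule gives them for. From other lists up to 4 called genes were named. Alternatives were pseudocounts of 0.5 and 5, no filter, equal upper quartiles, sarcomere scaling, edgeR 4.0.16 and DESeq2 1.42.0 on the recovered reads, replicate numbers as a block, and leaving out each library. The scripts were tested on simulated data. Promoters came from RefSeq (GRCm38.p6). No pair of replicates agreed within counting noise, the lowest chi-square per degree of freedom being 8.42.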

Additional observations from a re-analysis of the deposited data

Results flagged for a closer look

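Among 33 groups of 4 CreNeg libraries tested for a library far from the others, 2 were flagged, and chance flags about 1 in 20 groups. Lpl stood at 134 CPM in CreNeg replicate 2, above the other 3. Acads stood at 64.8 CPM in CreNeg replicate 1, apart from the other 3.

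Genes of the other pathway lists whose change from E14.5 to P14 differed between the tissues, by limma's test of the SAN change minus the RA change, included Vldlr at −1.36, Fabp4 at −3.38, Elovl5 at 1.27 and Nrip1 at 1.11 on the log2 scale.

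CrePos replicate 2, marked as an outlier by its title and not used in the comparison, lay above the CreNeg range for 5 of 33 members, below it for 10 and within it for 18. The 5 were Slc22a5 at 5.73 CPM, Acsl4 at 24.9 CPM, Acadl at 89.5 CPM, Hadhb at 100.4 CPM and Acat1 at 133 CPM. Its Myl2 level was 1032 CPM.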

How the results depend on the processing

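Of 60 calls of members, 41 were kept in every alternative and 13 were lost when some single library was left out. Over 1031 alternative values, 953 kept direction and side of the threshold, 78 were no longer past it and 0 reversed. Counts of members called moved by over 1.5 times as follows, and the cause was not tested. The shares of all genes called under these alternatives are not given here, so the counts cannot be read as particular to the set. DESeq2 gave 4 between tissues at P4, 2 at P14, 25 in RA from E14.5 to P14, 1 in the difference between the tissues' changes, 16 from P4 to P14 and 5 in the E12.5 set. edgeR gave 0 at P14, 12 from P4 to P14 and 1 in the E12.5 set. Equal upper quartiles gave 1 in the difference between changes, 15 from P4 to P14 and 1 at E12.5. Sarcomere scaling gave 3 at P14, 2 in the difference between changes and 12 from P4 to P14. A pseudocount of 5 gave 1 in the difference between changes, and all 3 CrePos libraries gave 1.

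With single libraries left out, the counts ranged from 5 to 6 between tissues over the stages, 2 to 2 at E14.5, 1 to 3 at P4 and 0 to 1 at P14. They were 10 to 13 in SAN and 14 to 16 in RA from E14.5 to P14, 0 to 1 for the difference between changes, 10 to 13 from E14.5 to P4, 7 to 10 from P4 to P14 and 0 to 0 at E12.5. The Acsl1 to Acsl3 ratio ranged from −1.40 to −1.02 between tissues and 5.05 to 5.27 between stages, and Hadhb to Hadha from 0.02 to 0.12 and 0.54 to 0.68.

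Whether replicate numbers pair the samples is not given in the labels. Of 9 SAN libraries, 3 correlated best with the RA library of their own number. Correlations between libraries of the same number were weak, at −0.09 to 0.12, and cannot decide it. With the replicate block 14 members were called in SAN, 16 in RA, 6 between tissues (7 with the block within stage), 12 from E14.5 to P4, 9 from P4 to P14 and 0 at E12.5. The block ended the calls for Lpl in SAN (adjusted p = 0.052) and Acat1 in RA (adjusted p = 0.061). The ratio of Cpt1b to Cpt1a was not run. Depth limits the low genes Acsl6, Ucp3, Ehhadh and Acadvl.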
